A study of Mus musculus with 6 samples.

Results

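miR-223, miR-511, miR-342-3p and miR-342-5p are 4 of the 517 microRNA assays read in the aortas of hypercholesterolaemic mice. They were picked by name as microRNAs of myeloid cells, with earlier results of these data known. All 6 mice were male, lacked Apoe, carried Cre recombinase at the lysozyme M locus (LysM-Cre) and ate a high-fat diet with 21% crude fat for 12 weeks from an age of 6 to 8 weeks. In 3 mice both Dicer alleles were floxed (Dicer_KO), and their 3 littermates had wild-type Dicer (Dicer_WT). This Cre acts in neutrophils, monocytes and macrophages, and the RNA came from the whole vessel, although the labels name macrophage as the cell type. In such RNA, fewer cells of a type and less RNA per cell cannot be told apart. Dicer itself was not measured on the arrays, so the genotypes had no check in these data.

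Dicer cuts a microRNA hairpin into its mature arms, so cells without it make few new microRNAs, while those made earlier persist until they decay. miR-223 is switched on in the granulocyte and monocyte lineages by PU.1 and C/EBP factors and restrains neutrophil production and inflammasome activity. miR-511 is made from an intron of Mrc1, the gene of the macrophage mannose receptor, and is known from tissue-resident and tumour-associated macrophages. Both arms of miR-342 come from an intron of Evl, a regulator of actin filaments. miR-342-5p has been described in plaque macrophages as a repressor of Akt1, and miR-342-3p is found in several haematopoietic lineages.

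The sequences are shown because the seed largely sets which messages a microRNA binds, and they let a reader see whether these microRNAs form a seed family. In RefSeq (GRCm38.p6), the miR-223 hairpin lies on the plus strand of chrX:96242817-96242926 within F630028O10Rik. The miR-511 hairpin lies on the plus strand of chr2:14261003-14261081 within Mrc1, and the miR-342 hairpin on the plus strand of chr12:108658620-108658718 within Evl. Mature sequences are written 5′ to 3′ with the seed, bases 2 to 8, in capitals. The name miR-223 carries no arm and is taken here as the 3p arm, which this name denoted before arms were added.
miR-223 (3p arm): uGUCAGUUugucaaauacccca
miR-342-3p: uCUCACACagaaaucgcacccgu
miR-342-5p: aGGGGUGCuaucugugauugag
Of 1679 mature mouse microRNA names in the RefSeq table, 0 others shared the seed of miR-223-3p, of miR-342-3p or of miR-342-5p.

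The miR-342 hairpin is printed because both of its arms were assayed, with the 5p and then the 3p arm in capitals.
miR-342 hairpin: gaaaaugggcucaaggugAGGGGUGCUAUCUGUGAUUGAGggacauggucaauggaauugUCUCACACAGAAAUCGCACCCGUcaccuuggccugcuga
The assay name miR-511 does not give the arm it reads, so the whole hairpin is shown, with the 3p arm in capitals.
miR-511 hairpin: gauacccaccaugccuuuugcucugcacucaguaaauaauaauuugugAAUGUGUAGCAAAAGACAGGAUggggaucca

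Each level was read by TaqMan PCR as a threshold cycle (Ct), the cycle at which product appears, so that each further cycle stands for about 2 times less RNA, and Ct below 35 was taken as detected. All 4 assays were detected in all 6 aortas, from Ct 19.2 to Ct 31.2, which leaves no well of theirs to be filled in. Each assay was read once per aorta, so 3 aortas per genotype set the precision. Assays amplify with different efficiency, so Ct is compared here between aortas and never as a level between microRNAs. The relative quantities deposited by the authors express each aorta against reference RNAs of its card, with the geometric mean of the Dicer_WT aortas at 1.

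The question was how far the vessel's level of these microRNAs differed between the genotypes. Each of the 4 was lower in all Dicer_KO than in all Dicer_WT aortas, and the mean levels were 2.51 to 3.98 times lower. The same separation was seen in 32.6% of all 377 assays tested. With all assays in the fit, 0 of the 4 passed an adjusted p of 0.05 (limma), where 1.86% of assays were called lower. All 4 had an unadjusted p under 0.05, as did 24.4% of assays in this direction, and the mean lay lower in Dicer_KO aortas for 78.2% of assays. The median log2 fold change of the 4 was -1.75, against -0.42 over all assays tested.

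miR-223, the granulocyte and monocyte microRNA, had Ct values of 19.5, 19.2 and 20.2 in Dicer_WT replicates 1 to 3 and of 21.5, 21.1 and 22.0 in Dicer_KO replicates 1 to 3. Its relative quantities were 0.945, 1.39 and 0.761 in Dicer_WT, against 0.279, 0.461 and 0.245 in Dicer_KO aortas. The groups did not overlap, with Dicer_WT replicate 2 the highest aorta and Dicer_KO replicate 3 the lowest. The log2 fold change, Dicer_KO minus Dicer_WT, was -1.66 ± 0.346 (SE, n = 3 each, limma adjusted p = 0.0641), with a 95% interval of -2.51 to -0.81.

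miR-511, the microRNA of the mannose receptor gene, had Ct values of 26.1, 26.2 and 26.7 in the Dicer_WT aortas and of 28.7, 28.0 and 29.0 in the Dicer_KO aortas. Its relative quantities were 0.992, 1.18 and 0.858 in Dicer_WT, against 0.199, 0.406 and 0.196 in Dicer_KO aortas. Dicer_KO replicates 1 and 3 lay together at the bottom, and replicate 2 held about 2 times as much as either. The log2 fold change was -1.99 ± 0.340 (SE, n = 3 each, limma adjusted p = 0.0542), with a 95% interval of -2.83 to -1.16. This microRNA passed the threshold without Dicer_KO replicate 1 (-1.83, limma adjusted p = 0.0417, a setting that called 14.6% of assays lower) and without Dicer_KO replicate 2 (-2.34, limma adjusted p = 0.0109, with 2.65% called lower). Over all 19 alternatives tried, its adjusted p ran from 0.0109 to 0.202.

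miR-342-3p had Ct values of 20.2, 20.6 and 20.7 in the Dicer_WT aortas and of 22.0, 21.6 and 22.5 in the Dicer_KO aortas. Its relative quantities were 1.07, 0.998 and 0.937 in Dicer_WT aortas, the tightest of the 4 microRNAs in that group, against 0.370, 0.581 and 0.293 in Dicer_KO aortas. The highest Dicer_KO aorta was again replicate 2. The log2 fold change was -1.33 ± 0.286 (SE, n = 3 each, limma adjusted p = 0.0670), with a 95% interval of -2.03 to -0.62. Without Dicer_KO replicate 2 it passed the threshold (-1.60, limma adjusted p = 0.0386, with 2.65% of assays called lower). The adjusted p of miR-342-3p spanned 0.0386 to 0.250 among the 19 alternatives.

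miR-342-5p, the arm described in plaque macrophages, had Ct values of 28.5, 27.7 and 28.7 in the Dicer_WT aortas and of 30.0, 29.9 and 31.2 in the Dicer_KO aortas. Its relative quantities were 0.750, 1.65 and 0.807 in Dicer_WT, against 0.316, 0.427 and 0.164 in Dicer_KO aortas. Dicer_WT replicate 2 stood above the other Dicer_WT aortas, and Dicer_KO replicate 3 gave the lowest relative quantity of any of the 4 microRNAs. The log2 fold change was -1.83 ± 0.476 (SE, n = 3 each, limma adjusted p = 0.0931), with a 95% interval of -3.0 to -0.66. Its residual SD of 0.670 on the log2 scale was the widest of the 4, the others lying at 0.362 to 0.462 and the median of all assays tested at 0.342.

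**Figure D1:**
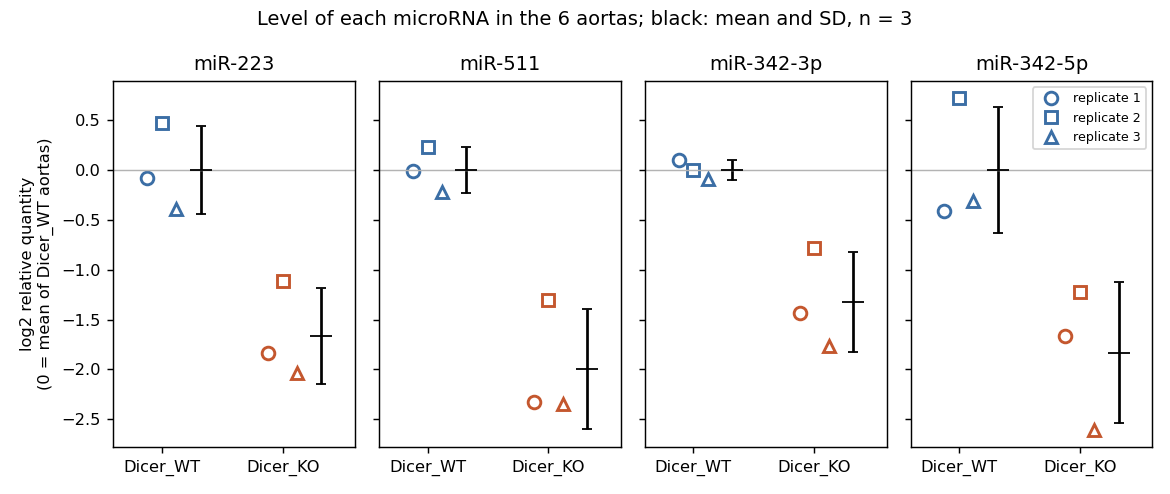
Log2 relative quantity (vertical axis, 0 is the mean of the Dicer_WT aortas) of the 4 microRNAs in each of the 6 aortas, with 1 symbol per replicate and the mean ± SD of 3 aortas in black. In every panel the 3 Dicer_KO aortas lie below the 3 Dicer_WT aortas, as in 32.6% of the 377 assays tested. Dicer_KO replicate 2 is the highest of the Dicer_KO aortas.

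In all 4 microRNAs the Dicer_KO aortas stood in the same order, with replicate 2 highest, replicate 1 in the middle and replicate 3 lowest. The median of all assays tested had another order in these aortas, at -0.21 in replicate 1, -0.40 in replicate 2 and -0.61 in replicate 3 on the log2 scale. The mean of the 4 microRNAs was -1.82, -1.11 and -2.19 in Dicer_KO replicates 1, 2 and 3. Among the Dicer_WT aortas, replicate 2 was highest for miR-223, miR-511 and miR-342-5p but not for miR-342-3p. The 6 aortas are few, and these orders are given as a description.

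The authors' deposited table of fold changes, Dicer_KO over Dicer_WT, gave 0.318 for miR-223, 0.265 for miR-511, 0.414 for miR-342-3p and 0.282 for miR-342-5p. In that table the fold of these 4 is the ratio of arithmetic means of the relative quantities. The ratios of geometric means, which the log2 fold changes stand for, were 0.316, 0.251, 0.398 and 0.281.

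Among the 330 assays detected in all 6 aortas, miR-511 had the 3rd lowest log2 fold change, miR-342-5p the 4th, miR-223 the 5th and miR-342-3p the 8th. Among all 377 assays tested they ranked 28, 30, 31 and 35 from the lowest, behind assays with silent wells, whose value depends on the Ct given to those wells. When only the 330 assays detected in all 6 aortas entered the fit, all 4 passed the threshold, where 6.06% of assays were called lower. Their limma adjusted p-values were then 0.0317 for miR-511, 0.0389 for miR-223 and for miR-342-3p, and 0.0449 for miR-342-5p, with the same log2 fold changes. The calls of these microRNAs therefore changed with which other assays shared the fit, and their own values did not.

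**Figure D2:**
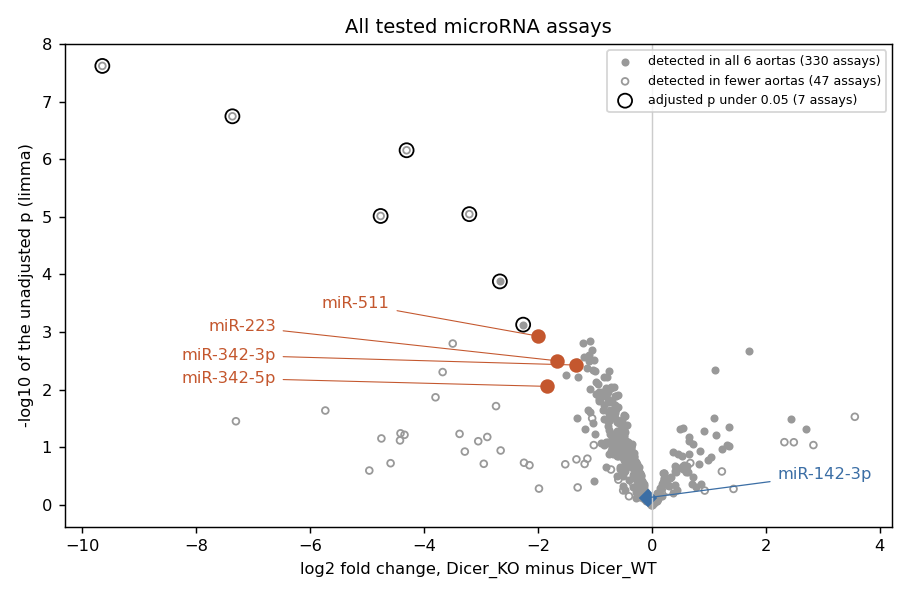
Log2 fold change (horizontal axis, Dicer_KO minus Dicer_WT) against -log10 of the unadjusted limma p for the 377 assays tested, filled where an assay was detected in all 6 aortas and ringed where its adjusted p was under 0.05. The 4 myeloid microRNAs (red) lie at -1.33 to -1.99 beside the lower edge of the filled points, and miR-142-3p (blue) lies at -0.07.

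The size of a fold change depended on the reference RNA. On the first card and the authors' scale, the control RNAs U87 and Y1 were themselves at -0.47 and -0.55 (log2, Dicer_KO minus Dicer_WT). U6, snoRNA135 and snoRNA202, which make up that scale, were at 0.16, -0.07 and -0.09. Which of these is the steadier reference was not tested. The median of all assays tested was -0.42 on the authors' scale, -0.61 relative to U6 and 0.16 relative to U87 and Y1. Relative to that median, miR-223 stood at -1.25 on the authors' scale and at -1.31 with U87 and Y1, while miR-511 at -1.58 and -1.64. By the same measure miR-342-3p stood at -0.91 and -0.97 and miR-342-5p at -1.42 and -1.48. Taken against U87 and Y1, the log2 fold changes themselves were -1.15 for miR-223, -1.48 for miR-511, -0.82 for miR-342-3p and -1.32 for miR-342-5p. Their limma adjusted p-values were 0.211, 0.161, 0.225 and 0.225. The direction was the same under all 19 alternatives for each of the 4.

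**Figure D3:**
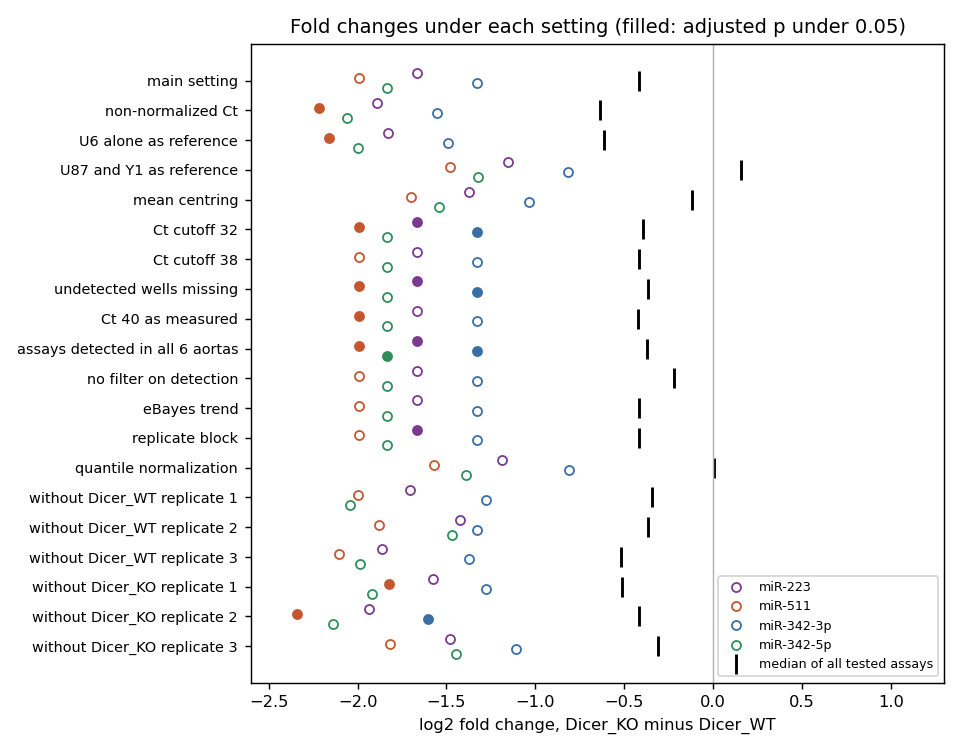
Log2 fold change of the 4 microRNAs (coloured circles, filled where the limma adjusted p was under 0.05) and the median of all assays tested (black bars) under the main setting and 19 alternatives. All circles lie below 0 and to the left of the median, which ranges from -0.64 without normalization to 0.16 against U87 and Y1.

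Levels were next compared within each aorta. The 4 assays and miR-142-3p, a microRNA of nearly all leukocytes, were read on the same card, so the difference between 2 of them in 1 aorta does not depend on the reference RNAs. 10 such differences were tested by exact permutation over the 6 aortas, two-sided, where 3 against 3 cannot give a p below 0.1, and p-values were adjusted over the 10.

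miR-142-3p had Ct values of 20.2, 20.3 and 20.7 in the Dicer_WT aortas and of 20.6, 20.5 and 20.9 in the Dicer_KO aortas, ranges that overlap. Its log2 fold change was -0.07 ± 0.224 (SE, n = 3 each, limma adjusted p = 0.802), with a 95% interval of -0.63 to 0.48, and it turned to 0.44 relative to U87 and Y1. Set against it, miR-511 was at -0.010, 0.024 and -0.014 in the Dicer_WT aortas and at -2.13, -1.55 and -2.08 in the Dicer_KO aortas, on a log2 scale where the Dicer_WT mean is 0. The Dicer_WT aortas thus lay within a few hundredths of a cycle of each other, and the Dicer_KO aortas differed from them by -1.92 (exact permutation p = 0.1, the smallest possible, adjusted 0.2). The gap in Ct between these assays, read here only as a change between aortas, was 5.92 to 5.96 cycles in Dicer_WT and 7.49 to 8.08 cycles in Dicer_KO aortas.

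miR-223 against miR-142-3p was at -0.080, 0.27 and -0.19 in the Dicer_WT aortas and at -1.64, -1.36 and -1.76 in the Dicer_KO aortas, a difference of -1.59 (exact permutation p = 0.1, adjusted 0.2). The difference for miR-342-3p was -1.25, from 0.10, -0.21 and 0.11 in the Dicer_WT aortas to -1.23, -1.03 and -1.50 in the Dicer_KO aortas (exact permutation p = 0.1, adjusted 0.2). For miR-342-5p it was -1.76, from -0.41, 0.52 and -0.10 to -1.46, -1.48 and -2.34 (exact permutation p = 0.1, adjusted 0.2). All 4 were lower against miR-142-3p in 3 of 3 Dicer_KO aortas than in any Dicer_WT aorta. The same separation against miR-142-3p was seen in 29.3% of the 249 other assays tested on this card, the 4 included. miR-142-3p was chosen with its own small change already known.

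Among themselves, 1 of 6 pairs of these microRNAs separated the genotypes. miR-511 against miR-342-3p was at -0.11, 0.24 and -0.13 in the Dicer_WT aortas and at -0.90, -0.52 and -0.58 in the Dicer_KO aortas. The genotypes differed by -0.67 in this pair (exact permutation p = 0.1, adjusted 0.2), with groups that do not overlap. Any full separation of 3 aortas from 3 gives this p of 0.1, so 1 such pair among 6 is given as a description. The other 5 pairs overlapped, with differences of -0.33 to 0.51 and exact permutation p-values of 0.2 to 0.6, adjusted 0.286 to 0.6.

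The arms of miR-342 come from 1 hairpin, and they were compared within each aorta. miR-342-3p minus miR-342-5p was at 0.51, -0.73 and 0.22 in the Dicer_WT aortas and at 0.23, 0.45 and 0.84 in the Dicer_KO aortas. The groups overlapped, and the difference of 0.51 was not distinguishable from the spread (exact permutation p = 0.4, adjusted 0.5). Without Dicer_WT replicate 2, whose value stood apart from both other Dicer_WT aortas, it was 0.14. For miR-223 minus miR-342-5p the genotypes differed by 0.17 (exact permutation p = 0.6, adjusted 0.6) and the value turned to -0.034 without Dicer_KO replicate 3, so no order of these 2 can be given. For miR-511 minus miR-342-5p they differed by -0.16 (exact permutation p = 0.6, adjusted 0.6) and the value turned to 0.042 without Dicer_WT replicate 1 and to 0.095 without Dicer_KO replicate 1.

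**Figure D4:**
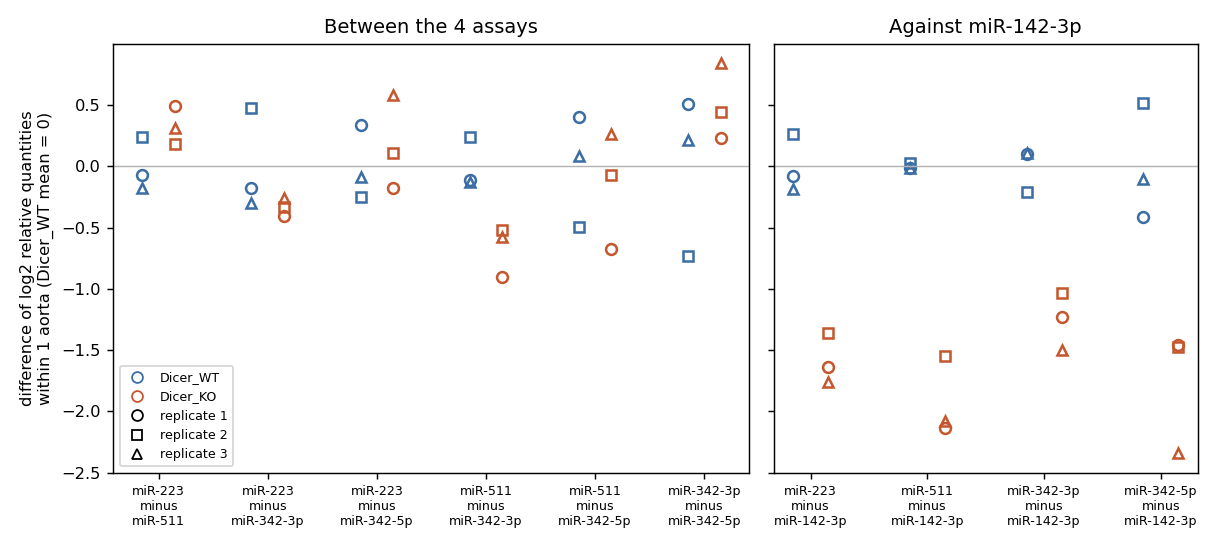
Difference of log2 relative quantities of 2 assays within 1 aorta (vertical axis, shifted so that the Dicer_WT mean is 0), between the 4 microRNAs on the left and against miR-142-3p on the right, with 1 symbol per aorta. Against miR-142-3p the genotypes do not overlap in any of the 4 comparisons, as in 29.3% of assays of this card. On the left they part only for miR-511 minus miR-342-3p (exact permutation p = 0.1, adjusted 0.2).

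The profile over the 6 aortas was then compared with that of every other assay detected in all 6, by the root-mean-square difference of log2 values after each assay's own mean was taken off. The closest assay to miR-223 was miR-511, at 0.226, followed by miR-342-5p at 0.294 and miR-342-3p at 0.298, where the median over 329 assays was 0.767. The 3 closest to miR-511 were miR-223 at 0.226, miR-342-3p at 0.372 and miR-342-5p at 0.387, with a median of 0.926. This measure takes in the difference between genotypes as well as the spread within them, so it is a description of assays with a like fold change in the same aortas.

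For the arms of miR-342 the closest assays were partly others. Those of miR-342-5p were miR-223 at 0.294, miR-511 at 0.387 and miR-431 at 0.484, with a median of 0.901. Those of miR-342-3p were miR-434-3p at 0.224, miR-337-3p at 0.228 and miR-340-5p at 0.256, with a median of 0.596. For miR-342-3p, miR-223 came 7th at 0.298, miR-511 24th at 0.372 and its partner arm miR-342-5p 73rd at 0.486. miR-431, miR-434-3p and miR-337-3p are products of the imprinted Dlk1-Dio3 region. In GRCm38.p6 their hairpins lie 927 to 936 kb downstream of the miR-342 hairpin on chromosome 12, whereas that of miR-340 lies on chromosome 11. The log2 fold changes were -2.26 ± 0.353 for miR-431 (SE, n = 3 each, limma adjusted p = 0.0400), the 1 call among them (adjusted p from 0.0177 to 0.186 over the alternatives), -1.10 ± 0.231 for miR-434-3p (adjusted p = 0.0641), -1.06 ± 0.202 for miR-337-3p (adjusted p = 0.0626) and -0.98 ± 0.245 for miR-340-5p (adjusted p = 0.0878).

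Beside the 4, 9 further microRNAs linked to myeloid cells were on the arrays, and 8 of them passed the filter on detection, all but miR-146b. Of the 8, 0 had an adjusted p under 0.05 (limma), 2 had an unadjusted p under 0.05 and 4 were lower without overlap. Over all assays tested these shares, in the lower direction, were 1.86%, 24.4% and 32.6%. The median log2 fold change of the 8 was -0.49, beside -0.42 for all assays tested, and it was 0.036 against U87 and Y1. The lowest was miR-147, a microRNA induced by Toll-like receptor signals, with Ct values of 29.2, 31.1 and 33.0 in the Dicer_WT aortas and no product in Dicer_KO aortas. With these wells given Ct 35, its log2 fold change was -3.67 on the authors' scale (limma adjusted p = 0.0691), -3.16 relative to U87 and Y1 and -2.84 without Dicer_WT replicate 1. Next came miR-146a, a brake on Toll-like receptor signalling, at -0.93 ± 0.271 (SE, n = 3 each, limma adjusted p = 0.106), or -0.42 relative to U87 and Y1. Both arms of miR-142 lay nearest to 0, with miR-142-5p at -0.09 ± 0.210 (adjusted p = 0.755), 0.42 relative to U87 and Y1.

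Markers of other cells of the vessel were present in all 6 aortas. The smooth muscle list held miR-143, miR-145 and miR-23b, and also miR-1, miR-133a and miR-133b, which are better known from striated muscle. All 6 were detected in every aorta, miR-145 of contractile smooth muscle at Ct 11.5 to 12.7. The mean log2 value of miR-143, miR-145 and miR-23b ran from -0.16 to 0.13 in Dicer_WT and from -0.79 to -0.21 in Dicer_KO aortas, and that of the 3 striated muscle microRNAs from -0.068 to 0.035 and from -0.74 to 0.38. In Dicer_KO replicate 3 these means were -0.79 and 0.38. The ranges were -0.11 to 0.14 and -0.36 to -0.12 for 4 endothelial assays, and -0.13 to 0.13 and -0.33 to 0.037 for 3 lymphoid assays. For 2 erythroid assays they were -1.0 to 0.85 and 1.0 to 1.65, so that this mean was higher in every Dicer_KO aorta than in any Dicer_WT aorta. The genotypes overlapped for miR-486 alone, at 0.67 in Dicer_KO replicate 1 and 0.76 in Dicer_WT replicate 1. The lowest mean, -1.0, was that of Dicer_WT replicate 3. The 4 microRNAs themselves ran from -0.26 to 0.36 and from -2.19 to -1.11. The median log2 fold changes were -0.61 for the former 3 muscle assays, -0.24 for the 3 of striated muscle, -0.29 for endothelial, -0.21 for lymphoid and 1.24 for erythroid assays. Relative to U87 and Y1 they were -0.095, 0.28, 0.22, 0.30 and 1.75, so that those of striated muscle, endothelial and lymphoid assays turned above 0. The endothelial list was mixed on the authors' scale, with log2 fold changes of -0.005 for miR-126-3p, 0.47 for miR-126-5p, -0.98 for miR-221 and -0.58 for miR-222. The lymphoid list was mixed too, with 0.53 for miR-150, -0.21 for miR-181a and -0.70 for miR-181c. In the muscle, endothelial, lymphoid and erythroid lists 0 members had an adjusted p under 0.05 (limma), where 1.86% of all assays tested were called lower. At an unadjusted p under 0.05, 2 of 6 assays of the smooth muscle list, miR-143 and miR-23b, and 2 of 4 endothelial assays were lower. The share over all assays tested was 24.4%. That share is for the lower direction only. At that threshold 1 erythroid assay, miR-451, which matures without Dicer, was higher (1.36, limma adjusted p = 0.176). The other erythroid assay, miR-486, stood at 1.12 (limma adjusted p = 0.202), and the cause of either value was not tested. The part of cell composition in the result was not tested.

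**Figure D5:**
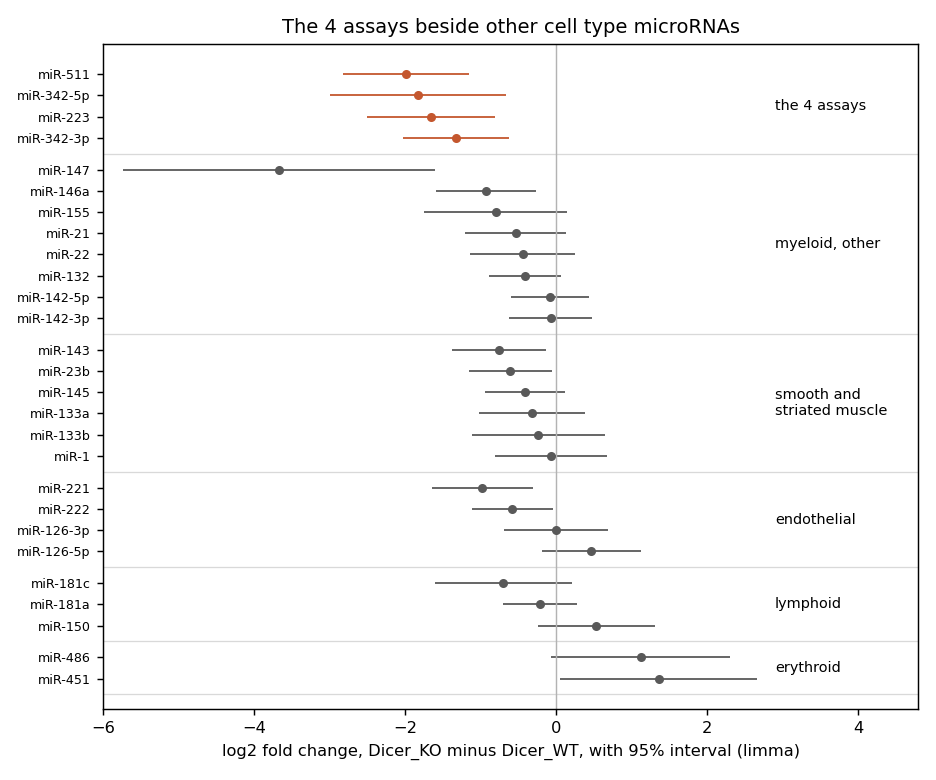
Log2 fold change, Dicer_KO minus Dicer_WT (horizontal axis), with its 95% limma interval for the 4 microRNAs (red) and for other microRNAs of myeloid, muscle, endothelial, lymphoid and erythroid cells (grey). The intervals of the 4 lie wholly below 0, at -3.0 to -0.62, as do those of miR-146a, miR-147, miR-143, miR-23b, miR-221 and miR-222. These intervals are unadjusted, and 24.4% of the 377 assays tested were lower at an unadjusted limma p under 0.05. The intervals of miR-142-3p and miR-142-5p straddle 0, and the value of miR-147 is set by the Ct given to silent wells.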

How the data were processed

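Per the labels' protocols, cDNA of the total RNA was made with a TaqMan reverse transcription kit, amplified in advance and detected through FAM. The Ct software is not given in the sources used here, and no batch is named. Ct values, in which 40 marks a well with no product, were deposited by the authors for 2 cards of 335 and 182 microRNA assays, and all 4 microRNAs lie on the first. The relative quantities deposited by the authors are a linear ratio. Rebuilt from Ct, they use U6, snoRNA135 and snoRNA202 as reference, with snoRNA429 added on the second card. A decimal comma in 5 Ct cells was read as a point. The deposited fold changes of the authors match the ratio of arithmetic means for 515 of 517 assays.

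Wells at or above Ct 35 were set to Ct 35. The 377 assays that 2 or more of 3 aortas of a genotype detected were fitted in R 4.3.3 with limma 3.58.1 (log2 scale, lmFit, then eBayes, two-sided, Benjamini-Hochberg over all tested). The fit was tested on simulated data with independent noise in each value. Those data held no shift of a whole aorta and set no well to Ct 35, so these features were not covered. The labels call the replicates biological, and each aorta was taken as 1 mouse. Same-numbered aortas of the genotypes did not deviate together throughout (correlations of 0.18, -0.10 and 0.15 over 330 assays), so no pairing was assumed. The members and lists were chosen with earlier results of these data known. Named beside the members were listed myeloid assays (lowest and nearest to 0), the 3 closest profiles and miR-142-3p. miR-145, miR-143, miR-23b, miR-1, miR-133a, miR-133b, miR-451, miR-486 and the endothelial and lymphoid assays were singled out after their values were seen. Alternatives concerned the reference, normalization, Ct cutoff, silent wells, filter, variance trend, replicate block and single aortas.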

Additional observations from a re-analysis of the deposited data

How the results depend on the processing

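The log2 fold changes of all 4 microRNAs stayed below 0 under all 19 alternatives (highest adjusted p of 0.202 to 0.250). As 0 of the 4 passed in the main setting, a call could only be gained. miR-223, at -1.66 in each, passed with a Ct cutoff of 32 (limma adjusted p = 0.0426), with silent wells missing (adjusted p = 0.0460) and with assays detected in all 6 aortas (adjusted p = 0.0389). miR-342-3p, at -1.33, passed under the same 3 settings (adjusted p = 0.0426, 0.0475 and 0.0389), and miR-342-5p, at -1.83, only with assays detected in all 6 aortas (adjusted p = 0.0449). miR-511, at -1.99, passed under those 3 settings (adjusted p = 0.0333, 0.0320 and 0.0317) and with Ct 40 as measured (adjusted p = 0.0486). It also passed with non-normalized Ct (-2.22, adjusted p = 0.0268) and relative to U6 alone (-2.16, adjusted p = 0.0163). The cause of each change was not tested. The number of assays called, 7, was 26 with a Ct cutoff of 32, 17 with silent wells missing, 13 with Ct 40 as measured and 22 with assays detected in all 6 aortas. In these 4 settings, 24 of 359, 16 of 365, 13 of 377 and 20 of 330 assays were called lower. In the main setting 7 of 377 were called lower, as were 9 of 377 with non-normalized Ct and 7 of 377 relative to U6 alone.

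Leaving out 1 aorta gave -1.94 to -1.43 for miR-223, -2.34 to -1.82 for miR-511, -1.60 to -1.11 for miR-342-3p, -2.14 to -1.45 for miR-342-5p and 5 to 64 assays called, the 64 without Dicer_KO replicate 1. The within-aorta difference of miR-223 and miR-342-5p then ran from -0.034 to 0.35 and that of miR-511 and miR-342-5p from -0.41 to 0.095. With the replicate number as a block miR-223 passed (-1.66, limma adjusted p = 0.0293) and no other of the 4 changed its call, with 7 of 377 assays called lower. For the within-aorta differences 3 pairs cannot give a p below 0.25. Precision is limited by 3 aortas per genotype and 1 well per assay and aorta.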
